A study of Mus musculus with 8 samples.

Results

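SR splicing factors and heterogeneous nuclear ribonucleoproteins (hnRNPs) bind pre-mRNA as it is made and help to decide which exons are kept. The 31 genes described here are all protein-coding genes of the deposited tables whose symbol starts with Srsf and a digit (11 SR genes) or with Hnrnp (20 hnRNP genes), of 41457 genes in each table, 21949 of them protein-coding. SR proteins carry domains rich in arginine and serine, are phosphorylated by kinases of the SRPK and CLK families, and mostly promote the use of an exon to which they bind. hnRNPs coat nascent RNA, often hold back the splicing of nearby exons, and several of them also act in export, stability and translation of mRNA. Many SR and hnRNP genes are known to limit their own levels through exons or introns that send the transcript to nonsense-mediated decay.

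The genes were compared between keratinocytes (KCs), the epithelial cells of the epidermis, after 1 week (4 samples) and after 3 weeks (4 samples) in culture. All 8 samples were wildtype C57BL/6 KCs (given as C57BL/6J in the study's text) from the tail skin of adult mice, with no treatment and no altered allele. They grew in a serum-free medium with little calcium and were passaged before they reached full confluence, so the 2 times may also differ in the number of passages. The design text speaks of 4 independent experiments. The study cultured the same batches of KCs for both times, but the labels do not tie a batch to a sample. The names of the deposited tables carry a number of unstated meaning, and 3 of these numbers occur at both times, in 1 week replicates 1, 3 and 4 and in 3 weeks replicates 1, 2 and 4. The number of mice behind a sample is not given in the sources used here.

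Between 13896807 and 20026084 reads were counted on exons per sample, and 81.6% to 84.7% of them mapped to a single place. Intron reads made up 1.48% to 2.38% of the reads on genes and were most frequent in 3 weeks replicate 4. The share of exon reads that crossed an exon-exon junction was 24.7% to 25.2% at 1 week and 22.0% to 23.6% at 3 weeks, with the lowest share in 3 weeks replicate 3. The 5 KC markers summed to 12076 to 14302 RPKM (reads relative to exon length and sequencing depth) at 1 week and to 6860 to 8121 RPKM at 3 weeks, and 2 of them, Krt5 and Itga6, fell. All 3 markers of proliferation fell (Mki67, Top2a and Ccna2), and their sum went from between 33.1 and 67.4 RPKM to between 2.28 and 4.39 RPKM. Markers of other cell types were low. Those of fibroblasts summed to 2.70 to 4.49 RPKM at 1 week and 2.30 to 4.65 RPKM at 3 weeks, with 0 of 6 called by edgeR, DESeq2 or limma and 0 at an unadjusted p under 0.05. Those of melanocytes summed to 1.91 to 11.3 RPKM at 1 week and 0.922 to 2.49 RPKM at 3 weeks, and 1 of the 3 tested, Pmel, fell. Leukocyte markers summed to at most 1.62 RPKM and endothelial markers to at most 0.253 RPKM in any sample, and Cd207 had no read in any sample.

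Exon reads of 14 of the 31 genes fell from 1 week to 3 weeks, and those of none rose. Calls rest on the quasi-likelihood test of edgeR, with p-values adjusted after Benjamini-Hochberg over all 12590 tested genes and held against 0.05, and all 31 genes passed the filter on low counts. Of all tested genes, 17.0% fell and 15.7% rose by the same rule, against 45.2% and 0 of the 31 genes. DESeq2 and limma also called 0 of the 31 genes higher, and 0 had a higher value at an unadjusted p under 0.05. The median log2 fold change, 3 weeks over 1 week, was -0.48 over the 31 genes, -0.43 over the 11 SR genes and -0.49 over the 20 hnRNP genes, against 0.03 over all tested genes. The value was negative for 28 of the 31 genes and for 48.2% of all tested genes. In bulk RNA, fewer cells of a kind and less RNA per cell cannot be told apart, and the part of the fall in proliferation markers in these changes was not tested.

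The number of genes called lower depended on single samples. It was 8 without 1 week replicate 3 (14.5% of all tested genes lower), 8 without 1 week replicate 4 (12.9%), between 11 and 14 without any of 5 other samples (12.7% to 18.7%), and 20 without 3 weeks replicate 3 (20.8%). Hnrnpa1, Hnrnpa3, Hnrnpab, Hnrnpd, Hnrnph3, Srsf1 and Srsf7 were called under every alternative, and Hnrnpdl under all but 1, with an adjusted p-value of 0.0505 in the 6 samples whose table numbers occur at both times, fitted without a block. Calls for Hnrnpf, Hnrnph1, Hnrnpl, Hnrnpm, Srsf2 and Srsf6 were lost both without 1 week replicate 3 and without 1 week replicate 4. Hnrnpf and Srsf6 also lost theirs without 1 week replicate 2, 3 weeks replicate 1 or 3 weeks replicate 2, and Srsf2 without 3 weeks replicate 1, 2 or 4. With the shared table numbers as a block, which leaves those 6 samples, Hnrnpl, Hnrnpm and Srsf6 were not called and Srsf3 was, so that 12 of the 31 genes were lower, 11 of them among the 14, against 14.2% of all tested genes.

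**Figure D1:**
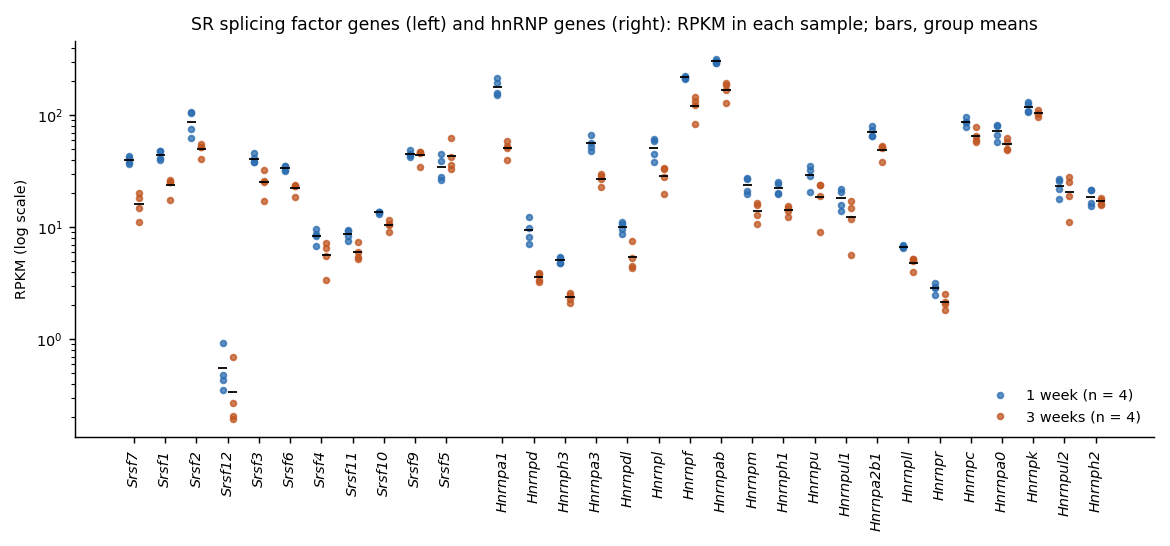
RPKM of the 11 SR genes and the 20 hnRNP genes, on a log scale, with 1 point for each of the 4 samples at 1 week (blue) and the 4 samples at 3 weeks (orange) and a bar at each group mean. Within each family the genes run from the largest fall to the highest value of the fold change, and in 19 of the 31 genes all 3 weeks points lie below all 1 week points.

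RPKM is per annotated exon length, which need not be the length of the transcript present, so levels of different genes compare only roughly. It is not corrected for library composition. On this scale the 4 samples at 3 weeks all lay below the 4 at 1 week for 19 of the 31 genes and above them for none. Among all tested genes, 26.2% showed such a separation downward and 10.8% upward. After TMM normalization, which corrects for composition, 15 of the 31 genes were still separated, all of them downward, against 18.5% of all tested genes separated downward and 16.4% upward. The summed RPKM of the SR genes was 357 ± 42.8 (SD, n = 4) at 1 week and 247 ± 15.0 at 3 weeks. That of the hnRNP genes was 1324 ± 94.5 at 1 week and 784 ± 77.2 at 3 weeks. Together the 31 genes took 0.685% to 0.827% of the exon reads of a sample at 1 week and 0.438% to 0.510% at 3 weeks.

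The largest fall lay in the A/B group of hnRNPs, taken here to include Hnrnpab, Hnrnpd and Hnrnpdl, in which 5 of 7 genes fell. Outside this group, Srsf7 (log2 fold change -1.14) and Hnrnph3 (-0.94) fell more than Hnrnpa3 (-0.88). Hnrnpa1 (chr15:103240432-103246692, GRCm38), which binds splicing silencers and counteracts SR proteins, had 151, 156, 195 and 215 RPKM in 1 week replicates 1 to 4 and 51.3, 59.3, 53.1 and 39.9 RPKM in 3 weeks replicates 1 to 4. The groups were far apart, with the highest 3 weeks sample below the lowest 1 week sample. Its log2 fold change was -1.65 ± 0.18 (SE, adjusted p = 0.000473), the largest fall among the 31 genes, and its exon reads at 3 weeks stood at 31.9% of those at 1 week after normalization. By mean RPKM, Hnrnpa1 ranked 3 of the 31 genes at 1 week and 6 at 3 weeks.

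Hnrnpd (chr5:99955935-99978938), also known as AUF1, binds AU-rich elements of mRNA and takes part in their decay. It had 7.05, 8.16, 9.92 and 12.4 RPKM in the 1 week samples and 3.91, 3.80, 3.34 and 3.27 RPKM in the 3 weeks samples. The 3 weeks samples were close together and all lower than any 1 week sample, while the 1 week samples spread more widely. The log2 fold change was -1.23 ± 0.18 (adjusted p = 0.00142). Its relative Hnrnpdl had 8.70, 11.2, 9.63 and 10.8 RPKM at 1 week and 5.26, 4.36, 4.52 and 7.49 RPKM at 3 weeks, a log2 fold change of -0.74 ± 0.18 (adjusted p = 0.0116). Here 3 weeks replicate 4 was the highest of its group, in contrast to most genes of the set.

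Hnrnpa3, a close relative of Hnrnpa1, went from 47.9, 52.1, 56.7 and 66.8 RPKM at 1 week to 28.4, 29.6, 26.9 and 23.0 RPKM at 3 weeks, a log2 fold change of -0.88 ± 0.15 (adjusted p = 0.00247). Hnrnpab was the gene with the highest RPKM of the set at both times. Its values were 304, 294, 319 and 289.8 RPKM at 1 week and 166, 194, 185 and 129.7 RPKM at 3 weeks, with no overlap and a log2 fold change of -0.67 ± 0.17 (adjusted p = 0.0157). The other genes of the A/B group, Hnrnpa2b1 and Hnrnpa0, did not pass the threshold, with log2 fold changes of -0.39 ± 0.16 (adjusted p = 0.0937) and -0.22 ± 0.15 (adjusted p = 0.277). Hnrnpa2b1 nevertheless had no overlap of RPKM between the groups, with 65.7 to 79.9 RPKM at 1 week and 38.2 to 52.8 RPKM at 3 weeks.

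The F/H group binds runs of guanines, and 3 of its 4 genes fell. Hnrnpf was second by RPKM at both times, with 220.3, 224, 212 and 216 RPKM at 1 week and 123, 133, 145 and 82.8 RPKM at 3 weeks. The 1 week samples differed little among themselves, the 3 weeks samples were all lower, and 3 weeks replicate 4 stood well below the rest of its group. For Hnrnpf the log2 fold change came to -0.67 ± 0.20 (adjusted p = 0.0306). Hnrnph3 had 5.45, 5.30, 4.75 and 4.79 RPKM at 1 week and 2.49, 2.10, 2.28 and 2.57 RPKM at 3 weeks, with no overlap and a log2 fold change of -0.94 ± 0.14 (adjusted p = 0.00137). Hnrnph1 lay between 19.8 and 25.1 RPKM at 1 week and between 12.4 and 15.4 RPKM at 3 weeks, a log2 fold change of -0.50 ± 0.13 (adjusted p = 0.0201). Hnrnph2, on chromosome X, overlapped between the groups, and its log2 fold change of 0.03 ± 0.14 (adjusted p = 0.903) turned negative in 9 alternatives.

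Of the hnRNPs outside these groups, Hnrnpl and Hnrnpm fell. Hnrnpl, which binds CA repeats, had 38.2, 44.6, 58.7 and 61.8 RPKM at 1 week and 33.5, 33.0, 19.6 and 28.3 RPKM at 3 weeks. The groups did not overlap, but the gap between the lowest 1 week sample and the highest 3 weeks sample was narrow. For Hnrnpl the log2 fold change came to -0.68 ± 0.19 (adjusted p = 0.0265). For its relative Hnrnpll the value was -0.31 ± 0.13 (adjusted p = 0.104). Hnrnpm had 19.8, 21.1, 27.1 and 27.7 RPKM at 1 week and 15.7, 16.3, 12.9 and 10.6 RPKM at 3 weeks, a log2 fold change of -0.62 ± 0.18 (adjusted p = 0.0256).

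The remaining hnRNP genes did not pass the threshold. For Hnrnpc, which binds uridine tracts, the log2 fold change was -0.24 ± 0.17 (adjusted p = 0.295), and for Hnrnpr it was -0.26 ± 0.12 (adjusted p = 0.128). Hnrnpr had 1.82 to 3.16 RPKM over all samples, from 665 to 1309 reads per sample and an annotated exon length of 22199 bases. Hnrnpk, a protein with KH domains that binds cytidine-rich RNA, had 108 to 131 RPKM at 1 week and 97.0 to 111 RPKM at 3 weeks and a log2 fold change of -0.02 ± 0.14 (adjusted p = 0.913). With that it ranked 4 by mean RPKM at 1 week and 3 at 3 weeks. Hnrnpu, which also organises chromatin, and its relatives Hnrnpul1 and Hnrnpul2 had log2 fold changes of -0.48 ± 0.27, -0.42 ± 0.28 and -0.02 ± 0.24, with adjusted p-values of 0.202, 0.282 and 0.969. In all 3 the lowest of the 8 samples was 3 weeks replicate 3, with 8.98 RPKM of Hnrnpu against 18.8 to 23.7 RPKM in the other 3 weeks samples.

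Of the SR genes, 4 of 11 fell. Srsf7 (chr17:80200080-80207307), which acts in splicing and in the export of mRNA, had 41.7, 38.1, 36.7 and 43.5 RPKM at 1 week and 14.8, 18.3, 20.2 and 11.0 RPKM at 3 weeks. The 2 groups were wide apart, and 3 weeks replicate 4 was again the lowest. The log2 fold change was -1.14 ± 0.21 (adjusted p = 0.00414), and Srsf7, Hnrnpa1 and Hnrnpd were the 3 genes below -1. Srsf1, the founding member of the family, had 40.1, 41.6, 48.0 and 47.7 RPKM at 1 week and 25.1, 26.6, 25.5 and 17.3 RPKM at 3 weeks, a log2 fold change of -0.74 ± 0.17 (adjusted p = 0.0106).

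Srsf2, known as SC35 and a marker of nuclear speckles, was the SR gene with the highest mean RPKM. It had 74.5, 62.6, 107 and 105 RPKM at 1 week and 52.4, 55.0, 51.9 and 40.5 RPKM at 3 weeks, and its 1 week samples fell into a lower and a higher pair. The log2 fold change was -0.64 ± 0.21 (adjusted p = 0.0411), and with uniquely mapped reads the adjusted p-value was 0.0533. Srsf6 lay between 31.8 and 35.5 RPKM in the 1 week samples and between 18.7 and 24.0 RPKM in the 3 weeks samples, a log2 fold change of -0.43 ± 0.13 (adjusted p = 0.0310).

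Srsf9 and Srsf5 had positive values and followed Srsf2 among the SR genes in mean RPKM over all samples. Srsf9 had 42.3, 45.1, 48.8 and 44.4 RPKM at 1 week and 45.8, 47.0, 47.3 and 34.8 RPKM at 3 weeks, so the groups overlapped, and its log2 fold change was 0.13 ± 0.14 (adjusted p = 0.540), with a negative value of -0.06 on log2(RPKM + 0.1). Srsf5 (chr12:80945504-80950507) had 26.2, 28.0, 38.7 and 45.0 RPKM at 1 week and 42.8, 35.9, 33.0 and 62.7 RPKM at 3 weeks. Its groups overlapped as well, 3 weeks replicate 4 was the highest of the 8 samples, and the log2 fold change of 0.49 ± 0.23 did not pass the threshold (adjusted p = 0.134). The other SR genes below 0 that did not pass were Srsf12 (-0.56 ± 0.48), Srsf3 (-0.53 ± 0.22), Srsf4 (-0.42 ± 0.20), Srsf11 (-0.35 ± 0.17) and Srsf10 (-0.21 ± 0.13), with adjusted p-values between 0.0925 and 0.409. Srsf3, Srsf10 and Srsf11 had no overlap of RPKM between the groups, but their groups overlapped after TMM normalization. Srsf12 had the lowest level of the set, 0.193 to 0.925 RPKM and 10 to 60 reads per sample, which limits what could be detected.

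**Figure D2:**
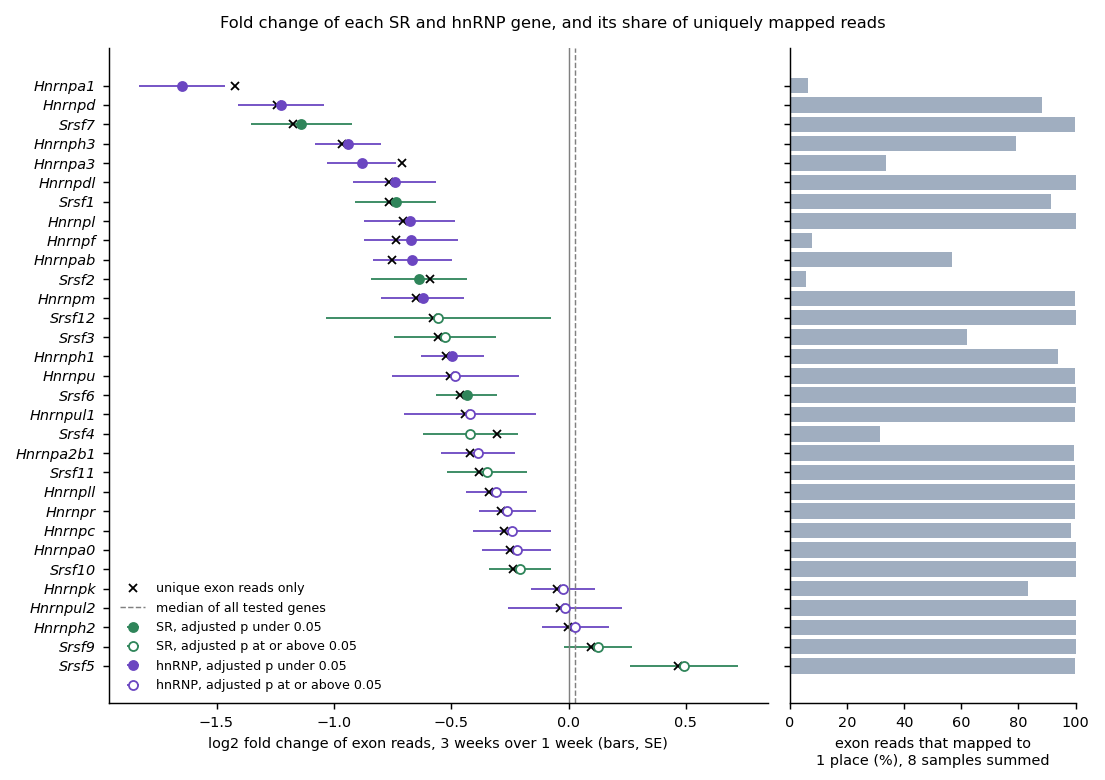
Log2 fold change of exon reads with its SE (left; filled, adjusted p under 0.05), the same from uniquely mapped exon reads (crosses), and the share of exon reads that mapped to 1 place over the 8 samples (right, in percent). The values from unique reads lie near those from all reads in the genes with few unique reads as well, with the widest gap for Hnrnpa1, at -1.42 against -1.65.

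Several of these genes had many exon reads that mapped to more than 1 place. Which other places these were was not tested. The share of exon reads that mapped to a single place was 5.47% for Srsf2, 6.36% for Hnrnpa1, 7.68% for Hnrnpf, 31.4% for Srsf4, 33.7% for Hnrnpa3, 56.9% for Hnrnpab and 62.1% for Srsf3, and 79.3% or more for the other 24 genes. With unique reads only, 13 of the 31 genes fell, the same as before without Srsf2. The log2 fold change of Hnrnpa1 became -1.42 (adjusted p = 0.000502), that of Hnrnpf -0.73 (adjusted p = 0.0236) and that of Hnrnpa3 -0.71 (adjusted p = 0.00401). Several genes also overlap another gene on the opposite strand, among them Hnrnpd with Gm17092, Hnrnph3 with Rufy2, Hnrnpab with Phykpl, Hnrnpu with Cox20, Srsf1 with Gm11508 and Srsf2 with Mettl23 and Mfsd11. The library kit is not a strand-specific one by name and the counting is not stated to use strand. Reads from a stretch that such a pair shares may thus not be told apart by strand. On the same strand, where strand could not separate reads, Srsf11 overlaps Gm43362, Srsf4 A930004J17Rik, Hnrnpa3 Gm24574, Hnrnpm March2 and Hnrnpk Mir7-1. All overlaps were taken from the ends of the genes, and whether their exons overlap was not tested.

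**Figure D3:**
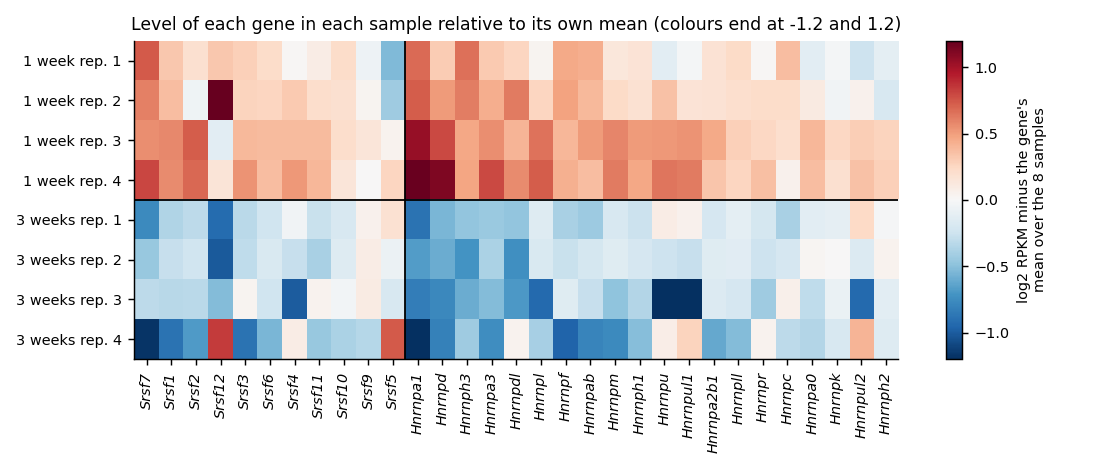
Log2 RPKM of each gene (columns, SR genes left and hnRNP genes right, ordered as in the plot of RPKM) in each of the 8 samples (rows), minus the mean of that gene over the samples. Red is above and blue below the gene's mean; 3 weeks replicate 4 is the lowest of the 8 samples in 19 of the 31 genes, and 3 weeks replicate 3 in 6, including Hnrnpu, Hnrnpul1 and Srsf4.

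The genes did not all follow the same sample order. In RPKM, 3 weeks replicate 4 was the lowest of the 4 samples at 3 weeks for 20 of the 31 genes and for 34.2% of all tested genes. For 3 weeks replicate 3 this was 7 of the 31 genes, against 41.0% of all tested genes. Hnrnpl, Hnrnpr, Hnrnpu, Hnrnpul1, Hnrnpul2 and Srsf4 were lowest of the 8 samples in 3 weeks replicate 3. Without these 2 samples together, a choice made after the data were seen, 13 of the 31 genes fell, against 19% of all tested genes. Of these 13 genes, 11 were among the 14 named above. Hnrnpl, Hnrnpm and Srsf2 were no longer called, and Srsf3 and Srsf11 were.

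Intron reads of the same genes were counted to ask whether they moved differently from exon reads. In some genes the annotated exons cover most of the region, so that little sequence could count as intron. Srsf2, for example, has 2958 exon bases in chr11:116849901-116853094. An intron kept in an annotated transcript may count as exon, so the ratio is not simply one of pre-mRNA to mRNA. The intron reads were few, and the libraries were made from poly(A) RNA. Over all 31 genes they numbered 293, 413, 338 and 497 in the 1 week samples and 433, 255, 248 and 627 in the 3 weeks samples, that is 0.231%, 0.292%, 0.298% and 0.352% of the intron and exon reads of these genes at 1 week and 0.481%, 0.312%, 0.327% and 1.00% at 3 weeks. The sample with the highest share, 3 weeks replicate 4, was also the one with the highest intron share over all genes.

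Of the 31 genes, 21 had the mean of at least 5 intron reads needed for the test. The ratio of intron to exon reads changed in none of them, by an edgeR fit with a term for each sample, an effect of the readout and an interaction of readout and weeks, over 6415 genes. In all tested genes, 1.33% had a higher and 0.374% a lower ratio at 3 weeks. At an unadjusted p under 0.05 there were 9 of the 21 genes, against 22.9% of all tested genes, and limma on the log2 ratio gave 7 of the 21 at an unadjusted p under 0.05 and also 0 called. The median log2 change of the ratio was 1.02 over the 21 genes and 0.59 over all tested genes, and the value was positive in 21 of 21 and in 82.3% of all. Without 3 weeks replicate 4 the median was 0.74 over 20 genes, 15 of them positive. With separate scaling of the intron and exon libraries it was 0.49, with 16 of 21 positive, against 0.06 over all tested genes. Where 10 intron reads were asked for in every sample, 5 of the 31 genes could be tested, with a median of 0.084 against 0.43 over all tested genes.

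Srsf11 came closest, with 11, 8, 12 and 21 intron reads at 1 week and 30, 15, 27 and 50 at 3 weeks, while its RPKM was 8.65 ± 0.862 at 1 week and 6.00 ± 0.955 at 3 weeks (SD, n = 4). Its intron reads were 0.992% of its reads at 1 week and 3.50% at 3 weeks, a log2 change of the ratio of 1.82 ± 0.48 (SE, adjusted p = 0.0646). The adjusted p-value of this change ran from 0.0349 to 0.210 over the alternatives. It was 0.0349 without 3 weeks replicate 3, where Hnrnpl was called as well. Srsf11 overlaps Gm43362 on the same strand, and whether its intron reads came from that gene was not tested. Hnrnpa1 had 74 intron reads in sum at 1 week and 72 at 3 weeks, a log2 change of the ratio of 1.71 ± 0.63 (adjusted p = 0.142), and Srsf7 had 53 and 63, with 1.66 ± 0.68 (adjusted p = 0.170). Of the intron reads at 3 weeks, 3 weeks replicate 4 alone held 39 for Hnrnpa1 and 33 for Srsf7. Hnrnpa2b1 and Hnrnpf, with the most intron reads, had log2 changes of the ratio of 0.03 ± 0.43 and 0.05 ± 0.40. Hnrnpa0 had no intron read and no junction read in any sample.

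**Figure D4:**
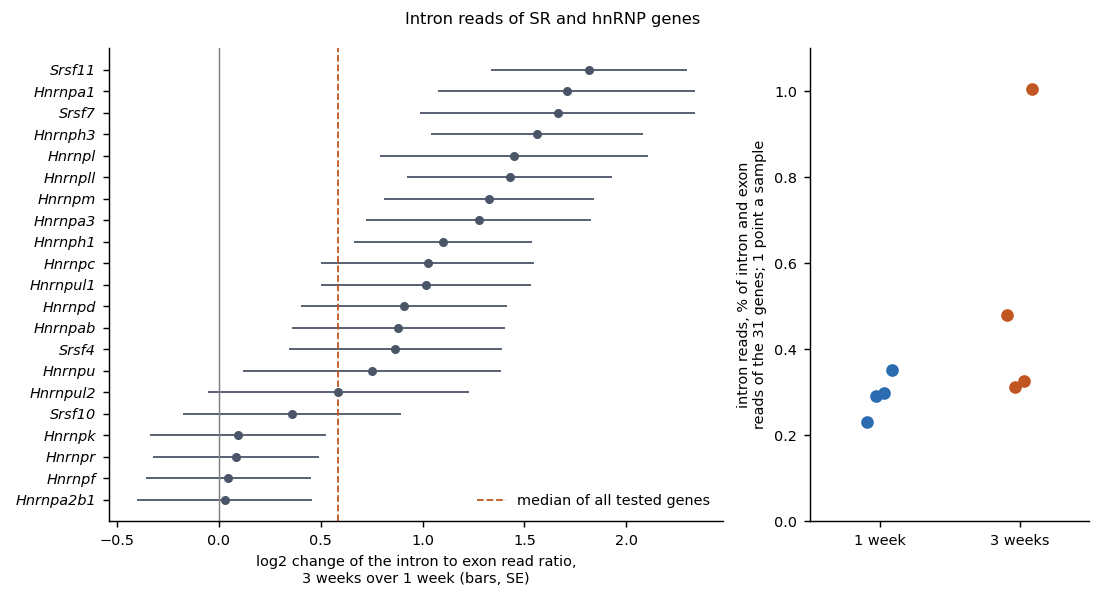
Log2 change of the ratio of intron to exon reads with its SE for the 21 genes that could be tested (left; dashed, the median of all tested genes, 0.59), and the intron share of the reads of all 31 genes in each sample (right, in percent). The point of 3 weeks replicate 4, at 1.00%, lies far above the other 7 samples, which range from 0.231% to 0.481%.

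Reads over exon-exon junctions were tested against the other exon reads of the same gene, a readout added after the data were seen. Of 29 genes tested, 0 had a changed share of junction reads by edgeR, with 5 at an unadjusted p under 0.05 (10.1% of all tested genes), and among all 10751 tested genes 1.23% had a lower and 0.0837% a higher ratio at 3 weeks. The median log2 change of the junction ratio was -0.02 over the 29 genes and -0.04 over all tested genes. For Hnrnpa1, 35.6% of exon reads crossed a junction at 1 week and 34.5% at 3 weeks. In the GENCODE annotation of GRCm38, 19 of the 31 genes have a transcript of the nonsense-mediated decay class (61.3%, against 28.6% of the tested protein-coding genes), 9 of them SR genes, and 22 have a retained-intron transcript (71.0%, against 58.8%). Gene totals do not show which of these transcripts the reads came from.

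Other splicing genes were taken from lists made by known function, 75 genes in all, of which 74 were tested. Of these, 22 fell and 5 rose. By the same rule 17.0% of all tested genes fell and 15.7% rose, which are the shares to hold beside the count of each list. Several lists are small, and no list was tested as a set. In the list of proteins that recognise splice sites (U1, U2 and U2AF), 8 of 14 genes fell and 0 rose, with a median log2 fold change of -0.60. U2af1, the subunit of U2AF that contacts the end of the intron, fell from 73.8 ± 7.52 RPKM (SD, n = 4) to 31.9 ± 5.66 RPKM, a log2 fold change of -1.03 ± 0.18 (SE, adjusted p = 0.00299), with 39.3% of its reads unique.

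Among the hnRNP-like proteins and other regulators, 10 of 29 genes fell and 3 rose, with a median of -0.29. Rbmx, also called hnRNP G, fell from 3.28 ± 0.526 to 0.860 ± 0.242 RPKM (log2 fold change -1.76 ± 0.23, adjusted p = 0.000867). Ptbp1, which binds pyrimidine tracts, went from 87.7 ± 11.2 to 51.1 ± 13.1 RPKM (-0.61 ± 0.20, adjusted p = 0.0432), with 48.8% of its reads unique. Of the 2 epithelial splicing regulators, Esrp1 fell from 33.2 ± 4.99 to 21.7 ± 3.59 RPKM (-0.46 ± 0.14, adjusted p = 0.0332), while Esrp2 had 17.8 ± 1.77 and 17.5 ± 4.76 RPKM (0.13 ± 0.17, adjusted p = 0.593, below 0 on the RPKM scale). In this list, Celf2 rose from 0.190 ± 0.0701 to 1.21 ± 0.542 RPKM (2.82 ± 0.36, adjusted p = 0.000763), Rbfox2 from 6.19 ± 1.02 to 9.03 ± 1.51 RPKM (0.70 ± 0.15, adjusted p = 0.00721), and Mbnl2 was higher by 0.44 on the log2 scale (adjusted p = 0.0324). The RPKM of Rbfox2 and that of Mbnl2 overlapped between the groups, and limma on log2(RPKM + 0.1) did not call Mbnl2 (adjusted p = 0.243).

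The kinases of SR proteins had 0 of 6 tested genes lower and 2 higher, with a median of 0.09. Srpk2 rose from 3.52 ± 0.511 to 6.32 ± 2.59 RPKM (log2 fold change 0.99 ± 0.24, adjusted p = 0.0140) and Clk4 from 1.43 ± 0.201 to 2.25 ± 0.213 RPKM (0.82 ± 0.16, adjusted p = 0.00521). The RPKM of Srpk2 overlapped between the groups, and its call was lost with limma on log2(RPKM + 0.1) (adjusted p = 0.0605) and without 1 week replicate 1 (adjusted p = 0.0573). Srpk1 had 4.98 ± 0.343 and 3.71 ± 0.758 RPKM (-0.27 ± 0.14, adjusted p = 0.157) and Clk1 3.37 ± 0.154 and 3.69 ± 0.423 RPKM (0.29 ± 0.12, adjusted p = 0.0822). Of 9 SR-related and TRA2 proteins 1 fell, Tra2b, which acts with SR proteins at exonic enhancers, from 21.1 ± 1.55 to 10.2 ± 1.79 RPKM (-0.87 ± 0.17, adjusted p = 0.00554). The list's median was -0.13.

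Of 6 genes for nuclear import and arginine methylation of SR proteins and hnRNPs, 3 fell, with a median of -0.45. The largest of these falls was that of Prmt5, a methyltransferase, from 26.1 ± 1.69 to 10.9 ± 1.83 RPKM (log2 fold change -1.10 ± 0.14, adjusted p = 0.000769). None of 10 genes of nonsense-mediated decay was called by edgeR, DESeq2 or limma, 0 at an unadjusted p under 0.05, and their median was 0.05.

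**Figure D5:**
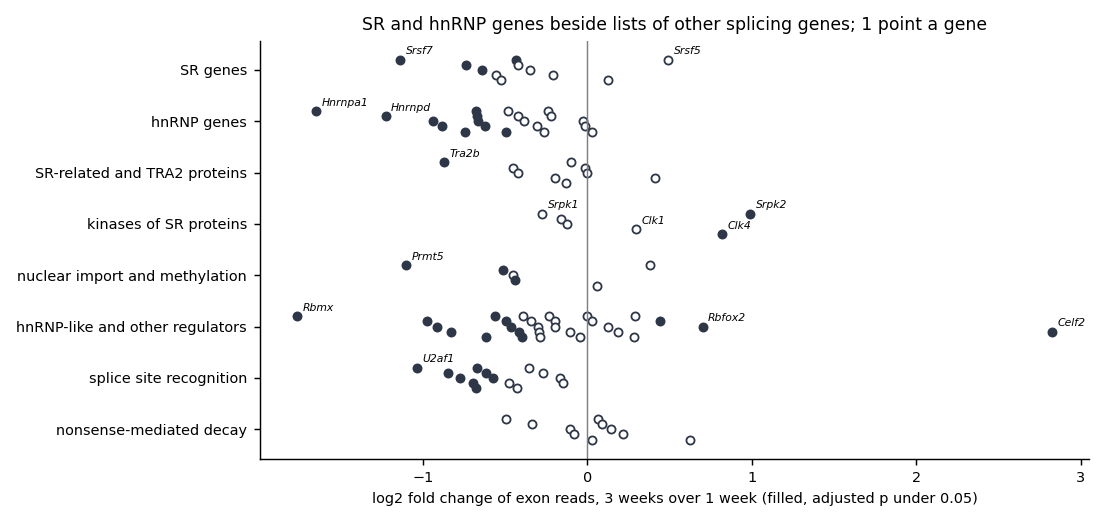
Log2 fold change of exon reads for each SR gene, each hnRNP gene and each tested gene of the lists of other splicing genes, 1 point a gene (filled, adjusted p under 0.05). Filled points lie left of 0 in the SR, hnRNP and splice site lists, the kinase list has filled points only on the right (Srpk2 and Clk4), and the nonsense-mediated decay list has none.

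Because many of these genes fell together, the 250 bases before their start sites were searched for 5 motifs on both strands. A RefSeq promoter on GRCm38.p6 was found for 29 of the 31 genes, all but Hnrnpul2 and Hnrnpll. The bases after the start lay in a GENCODE transcript for 22 of the 29, but not for Hnrnpa1 and Srsf5. The window used lay 2348 bases from the start of the gene for Hnrnpl, 1402 for Hnrnpm and 1226 for Hnrnpk. Some genes had several such promoters, 5 for Hnrnph1, of which not all were used. The promoters of the 3 genes with the largest falls and of Srsf5, the gene with the highest fold change, are given from 5′ to 3′ along the gene and end at the base before the start. Capitals mark CCAAT boxes (CCAAT), ETS cores (CCGGAAG) and E-boxes (CACGTG), each on either strand.
Hnrnpa1: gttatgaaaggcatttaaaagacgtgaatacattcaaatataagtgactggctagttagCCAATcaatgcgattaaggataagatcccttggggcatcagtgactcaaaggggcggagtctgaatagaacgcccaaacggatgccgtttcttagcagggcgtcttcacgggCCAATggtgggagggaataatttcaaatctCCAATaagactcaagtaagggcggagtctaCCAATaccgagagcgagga
Hnrnpd: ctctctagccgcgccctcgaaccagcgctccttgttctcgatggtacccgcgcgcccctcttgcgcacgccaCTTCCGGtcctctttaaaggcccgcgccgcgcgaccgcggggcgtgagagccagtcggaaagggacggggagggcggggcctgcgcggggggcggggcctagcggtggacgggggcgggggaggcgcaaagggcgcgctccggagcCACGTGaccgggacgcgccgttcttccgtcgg
Srsf7: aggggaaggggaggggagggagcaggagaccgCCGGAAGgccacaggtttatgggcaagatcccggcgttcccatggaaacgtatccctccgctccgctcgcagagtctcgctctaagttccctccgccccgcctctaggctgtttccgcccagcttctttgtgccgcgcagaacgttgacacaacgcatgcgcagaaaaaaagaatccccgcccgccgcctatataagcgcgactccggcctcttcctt
Srsf5: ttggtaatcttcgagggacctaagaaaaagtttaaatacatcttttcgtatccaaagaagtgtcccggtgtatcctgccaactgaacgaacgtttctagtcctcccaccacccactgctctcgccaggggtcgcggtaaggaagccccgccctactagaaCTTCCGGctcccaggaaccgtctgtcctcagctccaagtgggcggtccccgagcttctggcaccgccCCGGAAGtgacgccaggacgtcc

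These windows are chr15:103240147-103240396 on the plus strand for Hnrnpa1, chr5:99978939-99979188 on the minus strand for Hnrnpd, chr17:80207306-80207555 on the minus strand for Srsf7 and chr12:80945249-80945498 on the plus strand for Srsf5. Hnrnpa1 has 4 CCAAT boxes, whose first bases lie 191, 79, 49 and 19 bases before the start. Hnrnpd has an ETS core at 178 and an E-box at 32 bases before the start, Srsf7 an ETS core at 218 bases, and Srsf5 ETS cores at 90 and 23 bases.

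Over the set, 15 of 29 promoters held a CCAAT box (51.7%, against 36.7% of 9749 tested genes with a promoter and 34.3% of all 27025 promoters), in 12 of 18 hnRNP genes and 3 of 11 SR genes. It was present in 6 of the 14 genes that fell and in 9 of the 15 others with a promoter. An ETS core was found in 6 of 29 (20.7%, against 14.5% of tested genes and 7.11% of all promoters), an E-box in 2 (6.90%, against 8.51% and 6.01%), and a GC box (GGGCGG) in 23 (79.3%, against 61.0% and 33.0%). An NRF1 core, searched as its palindrome, was in 0 of 29 (against 1.64% and 0.773%). The median GC content of the promoters was 65.2% in the set and 60.0% in all tested genes. A match is a description of letters, not a shown site of binding.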

How the data were processed

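The authors made poly(A) libraries (NEBNext Ultra II, 59-base single reads), trimmed adapters, aligned reads to GRCm38 and counted them per gene in the CLC Genomics Workbench (version 12.0, default settings). The deposited counts are whole reads per gene on exons (total and unique), introns and junctions, without normalization. The authors also deposited RPKM values, written with decimal commas. The annotation release and the use of strand are not given in the sources used here.

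For total exon read counts, edgeR 4.0.16 was run under R 4.3.3 (filterByExpr, TMM, glmQLFit and glmQLFTest), with 8 samples in 2 groups, unpaired as in the study's statistics, and Benjamini-Hochberg adjustment. The intron ratio was tested on 16 columns (2 readouts a sample) with 1 library size per sample, the junction ratio likewise. SEs were derived from the F statistics. DESeq2 1.42.0, limma 3.58.1 and other scalings, filters and sample sets served as alternatives. The procedure was tested on simulated data. Other computations used Python 3.11.15 and matplotlib 3.10.9.

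The members and lists were chosen with earlier results of these data known. Values in every sample were given for the up to 12 called members with the largest change and the 3 members with the highest RPKM per family. From the pathway lists, Tra2b, Clk1, Srpk1, Ptbp1, Esrp1 and Esrp2 were named, with the 4 largest rises and 4 largest falls (1 of the falls is not reported here); Mbnl2 was named as the third rise of its list, after its value was seen. Coordinates are those of the deposited tables. The smallest chi-square per degree of freedom between 2 replicates was 15.3, so no 2 replicates agreed within sampling noise. Replicates may share a batch of KCs, and p-values measure the spread between these samples.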

Additional observations from a re-analysis of the deposited data

Results flagged for a closer look

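Within the 4 samples of each time, 1 sample lay far from the others by Dixon's test for 5 of 62 groups of values, where chance alone gives about 1 in 20 groups and the genes are not independent. All 5 were 3 weeks replicate 4. It had 18.7 RPKM of Srsf6 (23.1 to 24.0 in the other 3 weeks samples), 34.8 RPKM of Srsf9 (45.8 to 47.3), 38.2 RPKM of Hnrnpa2b1 (50.7 to 52.8) and 17.3 RPKM of Srsf1 (25.1 to 26.6), each below the others. For Srsf12 it was above them, at 0.692 RPKM (0.193 to 0.271). This sample also had the highest intron share, 2.38%. The cause was not tested.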

How the results depend on the processing

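The count of 14 genes lower and of 0 genes higher was 14 and 0 with DESeq2, RLE or upper-quartile scaling, no filter, 10 reads in every sample, or all reads on the gene, 13 and 0 with unique reads, and 20 and 0 with limma on log2(RPKM + 0.1) or log2(RPKM + 1). Limma on either RPKM scale called 24.5% of all tested genes lower, against 17.0% in the main test and 18.7% with unique reads, and over all tested genes the median was -0.16 on log2(RPKM + 0.1) and -0.10 on log2(RPKM + 1). Leaving out 1 sample gave 8 to 20 lower. The replicate numbers were not shown to pair the samples. Correlations between same-numbered samples were -0.21, -0.15, -0.13 and 0.24, with only the fourth highest for its own number. Such correlations cannot exclude that samples shared a batch of KCs. The fit with the replicate block called 8 genes lower and 0 higher, against 12.4% of all tested genes lower. Samples that share 1 of the 3 numbers in the deposited names that occur at both times had correlations of -0.21, 0.21 and 0.24. These numbers were thus not shown to pair all samples either. With them as the block, which also leaves out 1 week replicate 2 and 3 weeks replicate 3, 12 were lower, and 17 in the same 6 samples without the block (17.5% of all tested genes lower), a choice made after the data were seen. Other splicing genes called lower numbered 22 in the main test and 15 to 29 in the alternatives. Those called higher numbered 5 in the main test, 3 with limma on either RPKM scale, and 3 to 6 when 1 sample was left out. The intron ratio called 109 genes of all in the main test, 54 with separate scaling, 88 with the replicate block and 31 to 274 when 1 sample was left out. Members with a higher intron ratio numbered 1 with the replicate block (Srsf11) and 0 to 2 when 1 sample was left out. The cause of these differences was not tested.

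Members with small changes turned their sign. For the log2 fold change of Srsf9, limma gave -0.055 on log2(RPKM + 0.1) and -0.054 on log2(RPKM + 1), the numbers of the deposited names as the block -0.018, and the same 6 samples without the block -0.0077. That of Hnrnph2 was -0.035 with no filter, -0.0031 with unique reads, -0.12 on both RPKM scales, -0.11 with those numbers as the block, -0.12 in those samples without it and -0.061 to 0.10 without single samples. That of Hnrnpul2 was 0.11 with those numbers as the block, 0.10 in those samples without it, 0.052 without 3 weeks replicates 3 and 4 together and -0.17 to 0.14 without single samples. That of Hnrnpk was -0.10 to 0.029 without single samples. Esrp2 had -0.056 and -0.051 on the RPKM scales and -0.026 to 0.21 without single samples. With separate scaling, the log2 change of the intron ratio was -0.16 for Srsf10, -0.46 for Hnrnpr, -0.51 for Hnrnpa2b1, -0.48 for Hnrnpf and -0.43 for Hnrnpk. Without single samples it was -0.15 to 1.07 for Hnrnpu, -0.20 to 0.74 for Srsf10, -0.17 to 0.26 for Hnrnpr, -0.29 to 0.15 for Hnrnpa2b1, -0.15 to 0.25 for Hnrnpf and -0.16 to 0.37 for Hnrnpk.

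With 4 samples a group, 6 of the 14 calls were lost without 1 week replicate 3 or without 1 week replicate 4. Intron reads of the members numbered 0 to 68 per gene and sample, which limits the test of the ratio. Genes with few unique reads or an overlapping neighbour are less certain.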
